A study of Homo sapiens with 12 samples.

Results

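HAL1 elements are LINE insertions that were read here in RNA pulled down with full-length or truncated ZC3H18. Their members were every annotated repeat element whose subfamily name starts with HAL1 and that had reads on its own strand in at least 1 of 12 libraries. There were 12001 such loci among 1509971 elements of 6 repeat classes, and they held 85416 expected counts. They fell into 4 subfamilies, with 7704 loci named HAL1, 2173 named HAL1ME, 1348 named HAL1b and 776 named HAL1M8.

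HAL1 is an old, non-autonomous relative of L1 that carries the first L1 reading frame and lacks the second, which encodes the reverse transcriptase. Copies no longer move, are heavily mutated, and lie mostly inside introns or between genes. Those in an intron on the strand of the gene can be transcribed as part of that gene's unspliced RNA. ZC3H18 is a nuclear CCCH zinc-finger protein that links capped transcripts to the NEXT and exosome RNA surveillance machinery.

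RNA was recovered by PAR-CLIP, in which cells take up the nucleoside 4sU, protein and RNA are crosslinked by ultraviolet light, and a V5-tagged protein is precipitated with its RNA. The cells were A375, a human melanoma cell line, and they received 1 of 4 V5-tagged constructs by transient transfection, with 4sU added from 24 h onwards. The control construct, Clover, encodes a fluorescent protein. Z18fl encodes the whole of ZC3H18, Z18trunc a shortened ZC3H18, and Z18truncZnFmut the same shortened protein with some aromatic residues of its zinc finger changed to alanine. Each construct had 3 libraries, for which separate cultures are not stated, so p-values measure the spread between these libraries, which may be technical. No change to the cells' own ZC3H18 is stated. Only precipitated RNA was analysed, so the amount of an RNA in the cells and the share of it recovered with the protein cannot be told apart. The tables hold repeat elements and no gene counts, and the label of the cell line was not checked.

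The Clover libraries were the shallowest, with 16683132 to 17673644 aligned fragments each, while the ZC3H18 libraries had 21285347 to 25686948. Z18truncZnFmut replicate 3 stood apart. It listed 7428 HAL1 loci, against 795 to 3009 in the other 11 libraries, and 4687 loci were listed in that library alone. Only 54.9% of its HAL1 counts lay on the strand of the element, against 63.9% to 72.8% elsewhere. The values of that library are given beside the main results for Z18truncZnFmut.

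Most HAL1 loci were barely read. In all, 7563 loci (63.0%) had reads in a single library, 10628 (88.6%) had fewer than 10 counts over the 12 libraries, and 148 were read in all 12. The 10 loci with the most counts held 11.3% of HAL1 counts and the top 100 held 32.7%. Reads that mapped to 1 place only made up 71.7% of HAL1 counts. The median locus was 323 bases long, 64.6% A and T, and differed from its consensus at 27.6% of bases, with HAL1M8 the least diverged at a median of 23.1% and HAL1ME the most at 28.9%.

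The sequences of 5 loci show what these copies look like. ATG12, LUC7L3 and PRKAG1 are the host genes of the 3 loci that were called higher with every ZC3H18 construct, OXSR1 hosts a locus with 1 Clover read, and VOPP1 hosts an intronic locus that was lower with Z18fl. Each line is the central 200 bases of the element on its own strand, 5′ to 3′, from the hg38 genome, with runs of 5 or more T in capitals.
HAL1M8 in an intron of ATG12, chr5:115835411-115835610, minus strand: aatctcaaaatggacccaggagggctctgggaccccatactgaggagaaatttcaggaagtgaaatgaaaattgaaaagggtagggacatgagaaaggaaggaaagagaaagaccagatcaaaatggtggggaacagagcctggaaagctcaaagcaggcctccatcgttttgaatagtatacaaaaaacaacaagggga
HAL1 in an intron of LUC7L3, chr17:50738634-50738833, plus strand: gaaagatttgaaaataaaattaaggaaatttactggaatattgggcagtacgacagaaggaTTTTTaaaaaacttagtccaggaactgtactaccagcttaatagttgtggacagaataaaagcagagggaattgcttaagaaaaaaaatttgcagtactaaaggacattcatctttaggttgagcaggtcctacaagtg
HAL1 in an intron of PRKAG1, chr12:49008534-49008733, minus strand: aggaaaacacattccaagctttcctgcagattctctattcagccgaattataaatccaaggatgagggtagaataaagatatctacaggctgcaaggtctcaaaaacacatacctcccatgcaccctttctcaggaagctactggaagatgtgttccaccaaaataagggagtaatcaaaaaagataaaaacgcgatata
HAL1 in an intron of OXSR1, chr3:38235459-38235658, plus strand: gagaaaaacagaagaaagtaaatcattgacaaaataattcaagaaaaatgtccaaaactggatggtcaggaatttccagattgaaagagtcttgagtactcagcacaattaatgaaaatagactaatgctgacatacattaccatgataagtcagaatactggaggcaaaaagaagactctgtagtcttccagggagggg
HAL1ME in an intron of VOPP1, chr7:55467324-55467523, minus strand: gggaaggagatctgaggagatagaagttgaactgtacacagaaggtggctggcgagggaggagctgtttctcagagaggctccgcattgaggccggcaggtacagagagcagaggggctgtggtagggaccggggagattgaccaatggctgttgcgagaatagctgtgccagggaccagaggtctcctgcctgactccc

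The windows were 56.0%, 66.0%, 60.5% and 64.0% A and T in the first 4 loci and 41.5% at VOPP1. The median over whole HAL1 loci was 64.6%. A run of 5 T was searched on the strand of the element and was found in the LUC7L3 window alone among these 5. It was held by the central window of 17.29% of the 133 tested HAL1 loci of at least 200 bases, 20.35% of 6945 tested LINE elements and 11.59% of all 18515 tested elements of that length.

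The AU-rich word ATTTA, written as DNA, was likewise found at LUC7L3 alone, and its shares in the same 3 sets were 15.79%, 27.93% and 14.87%.

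The word AATAAA, the canonical polyadenylation signal as DNA, was found in 2 places at LUC7L3 and in 1 at PRKAG1, and its shares were 19.55%, 27.13% and 15.12%. A match describes these letters only.

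The first comparison asks how much HAL1 RNA came down with each construct relative to the Clover background. HAL1 counts scaled by aligned fragments (CPM) stood at 195, 158 and 174 in Clover replicates 1 to 3. They reached 319, 298 and 344 CPM with Z18fl, then 332, 342 and 383 CPM with Z18trunc. With Z18truncZnFmut they were 287, 287 and 621 CPM. No ZC3H18 library fell to the Clover range. The mean was 1.83-fold that of Clover in Z18fl and 2.01-fold in Z18trunc, and in Z18truncZnFmut it was 2.27-fold with replicate 3 and 1.64-fold without it. Each difference had an exact permutation p of 0.1, the smallest that 3 libraries against 3 allow, and 0.197 after Benjamini-Hochberg adjustment over 75 such tests. Without the 5 loci with the most counts, the Clover mean was 145 ± 17.0 CPM (SD, n = 3), Z18fl 304 ± 22.3 and Z18trunc 329 ± 27.3.

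HAL1 also took a larger share of all element counts. Of all same-strand element counts it made up 0.443% ± 0.0303 (SD, n = 3) in Clover, 0.615% ± 0.0102 with Z18fl, 0.619% ± 0.0348 with Z18trunc and 0.595% ± 0.0813 with Z18truncZnFmut, where replicate 3 had 0.688% and the others 0.540% and 0.557%. The Clover libraries lay below all others, with an exact permutation p of 0.1 for each construct. Z18trunc and Z18fl overlapped, as did Z18truncZnFmut and Z18trunc, the latter pair not without Z18truncZnFmut replicate 3 (a difference of -0.070 percentage points). LINE elements as a whole rose too, from a mean of 9820 CPM in Clover to 17356 with Z18fl and 20445 with Z18trunc. The HAL1 means in the same groups were 176, 321 and 352 CPM, so the gain was not particular to HAL1.

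With all HAL1 counts summed into 1 feature and tested beside the other subfamilies in edgeR after TMM scaling, the sum rose with Z18fl by a log2 fold change of 0.40 ± 0.069 (SE), adjusted p = 0.00023. It rose with Z18trunc by 0.51 ± 0.092, adjusted p = 0.00034. Among all features of those fits 19.9% of 911 and 14.3% of 921 were called higher. With Z18truncZnFmut the log2 fold change was 0.25 ± 0.17, which did not pass (edgeR adjusted p = 0.47), and without replicate 3 of that construct it was 0.38 with an adjusted p of 0.0004. The sums of Z18trunc and Z18fl differed by 0.08 ± 0.073 on the log2 scale (edgeR adjusted p = 0.64), and those of Z18truncZnFmut and Z18trunc by -0.23 ± 0.16 (edgeR adjusted p = 0.84). The 3 comparisons against Clover share its libraries.

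Scaling matters for the size of these changes. In the fit of sums, TMM put the median log2 fold change of all features at -0.01 for Z18fl, -0.02 for Z18trunc and 0.03 for Z18truncZnFmut. With library sizes taken from aligned fragments those medians were 0.45, 0.48 and 1.04, and the HAL1 sum was at 0.87, 1.01 and 1.18. In the fits of single elements the medians moved from 0.01, -0.03 and -0.05 to 0.48, 0.39 and 0.24. Fold changes below are on the TMM scale unless given as CPM.

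The 4 subfamilies moved by different amounts. Subfamily HAL1 had 114 ± 12.4 CPM (SD, n = 3) in Clover, 221 ± 15.1 with Z18fl, 249 ± 16.2 with Z18trunc and 268 ± 121 with Z18truncZnFmut, or a mean of 198 without its replicate 3. HAL1M8, the least diverged, had 11.4, 9.59 and 10.8 CPM in Clover and 24.5, 20.3 and 27.3 CPM in Z18fl. Its Z18trunc libraries had 24.8, 29.4 and 30.01 CPM, and those of Z18truncZnFmut 19.3, 21.7 and 45.9 CPM. In all 4 subfamilies every library with a ZC3H18 construct lay above the Clover libraries. HAL1ME rose from 22.2 ± 3.30 CPM (n = 3) in Clover to 40.5 ± 2.27 with Z18fl and was at 39.0 ± 7.39 with Z18trunc. Its Z18truncZnFmut libraries had 31.2, 35.0 and 90.9 CPM. HAL1b stayed closest to Clover, with 28.5 ± 2.15 CPM in Clover, 34.6 ± 2.68 with Z18fl and 36.8 ± 2.12 with Z18trunc. Its Z18truncZnFmut libraries had 37.0, 33.5 and 76.2 CPM.

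In the edgeR fit on subfamily sums, HAL1M8 had the highest log2 fold changes of the 4, 0.71 ± 0.11 (SE) with Z18fl (adjusted p = 7.3e-05) and 0.94 ± 0.11 with Z18trunc (adjusted p = 3.0e-06). A single HAL1M8 locus in ATG12, described below, had a mean of 0.41 CPM in Clover, 3.42 with Z18fl and 3.34 with Z18trunc. The subfamily means were 10.6, 24.0 and 28.0 CPM in the same groups. The part of this locus in the HAL1M8 rise was not tested. Subfamily HAL1 rose by 0.49 ± 0.070 and 0.66 ± 0.092, with edgeR adjusted p of 3.9e-05 and 2.4e-05. HAL1ME rose by 0.40 ± 0.082 and 0.34 ± 0.098, with edgeR adjusted p of 0.00096 and 0.016, and with Z18trunc it was not called without Clover replicate 2 (0.24) or Z18trunc replicate 1 (0.31). HAL1b was not called, at -0.19 ± 0.076 (edgeR adjusted p = 0.064) and -0.10 ± 0.092 (edgeR adjusted p = 0.53). With aligned-fragment scaling its sign turned and it was called higher, at 0.28 with Z18fl and 0.37 with Z18trunc (edgeR adjusted p of 0.024 and 0.011). Of all subfamilies tested, 20.1% were called higher and 20.1% lower with Z18fl, and 15.7% higher and 11.0% lower with Z18trunc. So on the TMM scale 3 of 4 HAL1 subfamilies were called higher with each of these constructs and none lower. With aligned-fragment scaling all 4 were called higher with each, beside 496 of 918 and 416 of 923 subfamilies.

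With Z18truncZnFmut none of the 4 passed at an edgeR adjusted p under 0.05, where 1.30% of all subfamilies were called higher. HAL1M8 was at 0.50 ± 0.15 with an adjusted p of 0.12 and was the single HAL1 subfamily with an unadjusted p under 0.05. Without replicate 3, HAL1 was at 0.46 (edgeR adjusted p = 1.2e-05) and HAL1M8 at 0.62 (edgeR adjusted p = 9.9e-05). None of the 4 was called for Z18trunc against Z18fl or for Z18truncZnFmut against Z18trunc.

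**Figure D1:**
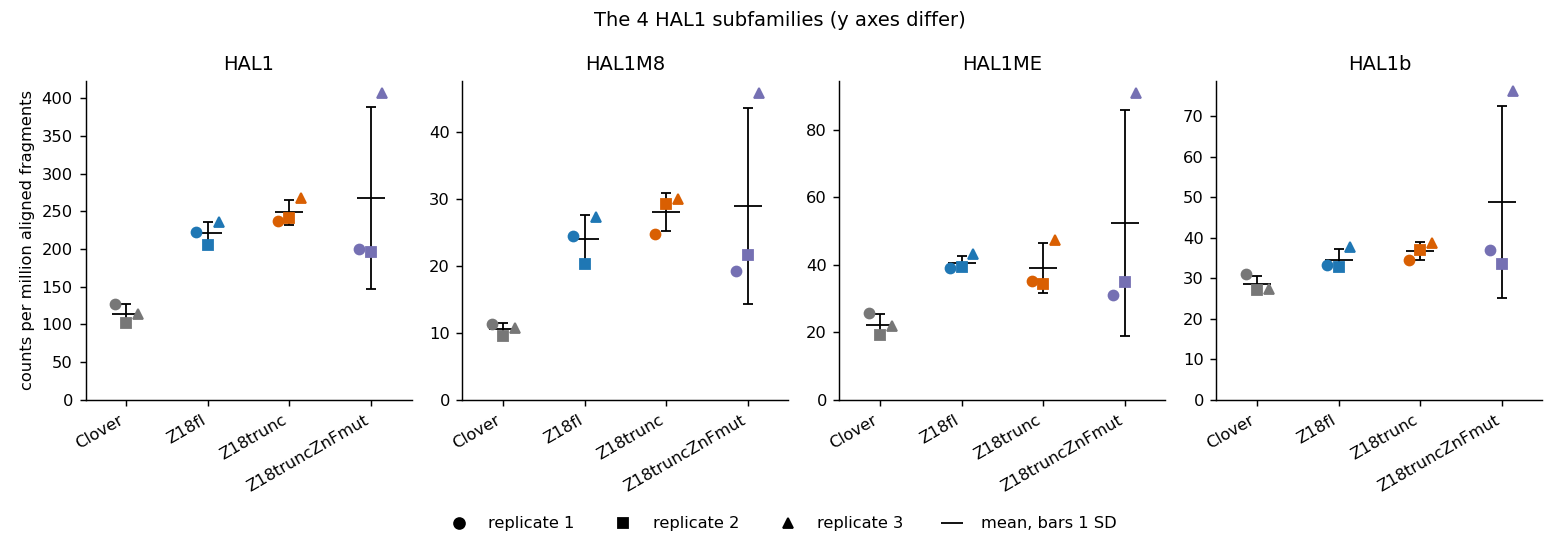
CPM (y axis, from 0, scales differ) of the 4 HAL1 subfamilies in the 4 constructs (x axis), each point a library, dashes the mean and bars 1 SD. HAL1M8 lies near 10 CPM in Clover and at or above 19.3 in every other library, while HAL1b lies between 27.1 and 38.8 in all libraries but Z18truncZnFmut replicate 3.

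Within a library, HAL1b lost ground to subfamily HAL1. The log2 ratio of their counts was -2.03, -1.91 and -2.05 in Clover against -2.74, -2.65 and -2.65 in Z18fl. It was -2.78, -2.71 and -2.78 in Z18trunc against -2.43, -2.55 and -2.42 in Z18truncZnFmut. The 4 groups formed an order with Clover highest, Z18truncZnFmut next, and Z18fl and Z18trunc lowest and overlapping each other. The differences from Clover were -0.68, -0.76 and -0.47, each with an exact permutation p of 0.1 (n = 3 against 3). A large part of HAL1b was read in exons of SLFN5, at 11.1 ± 0.220 CPM in Clover. Without those elements the ratio was -2.71 ± 0.0952 (SD, n = 3) in Clover against -3.03 ± 0.0806 with Z18fl, -3.15 ± 0.0501 with Z18trunc and -2.99 ± 0.258 with Z18truncZnFmut. The place of Z18truncZnFmut in the order was then lost. Its libraries, at -3.19, -3.08 and -2.70, overlapped Clover, Z18fl and Z18trunc. The log2 ratio of HAL1M8 to subfamily HAL1 was -3.43 ± 0.0411 in Clover against -3.21 ± 0.120 with Z18fl, -3.15 ± 0.109 with Z18trunc and -3.23 ± 0.118 with Z18truncZnFmut, without overlap with Clover. With uniquely mapping reads alone the differences from Clover were only 0.073, 0.11 and 0.022 (exact permutation p of 0.6, 0.5 and 1.0).

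Where the elements sit relative to genes separated them further. Of the 12001 loci, 3945 lay in introns on the strand of the gene, 220 lay mostly in exons on that strand, 3787 were antisense to a gene and 4049 lay between genes. In exons HAL1 counts lay between 35.5 and 47.1 CPM in all 12 libraries, with means of 38.7 ± 2.93 (SD, n = 3) in Clover, 39.0 ± 3.48 with Z18fl, 40.0 ± 1.05 with Z18trunc and 44.7 ± 3.08 with Z18truncZnFmut. In introns they were at 76.96, 60.3 and 67.3 CPM in Clover but at 187, 173 and 204 CPM in Z18fl. Z18trunc had 192, 197 and 207 intronic CPM, Z18truncZnFmut 140, 143 and 217. All intronic values with a ZC3H18 construct were above Clover, by 2.76-fold in the mean with Z18fl, 2.91-fold with Z18trunc, and 2.44-fold with Z18truncZnFmut or 2.08-fold without its replicate 3.

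Loci antisense to a gene and between genes moved less with Z18fl and Z18trunc. Antisense loci had 36.7 ± 3.79 CPM (SD, n = 3) in Clover, 43.4 ± 1.74 with Z18fl and 57.3 ± 10.4 with Z18trunc. Intergenic loci had 32.0 ± 4.95, 50.1 ± 2.79 and 56.4 ± 9.08 CPM in the same groups. In Z18truncZnFmut replicates 1 and 2 the antisense values were 55.0 and 51.4 CPM and the intergenic values 44.7 and 47.0, while replicate 3 reached 180 and 182.

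**Figure D2:**
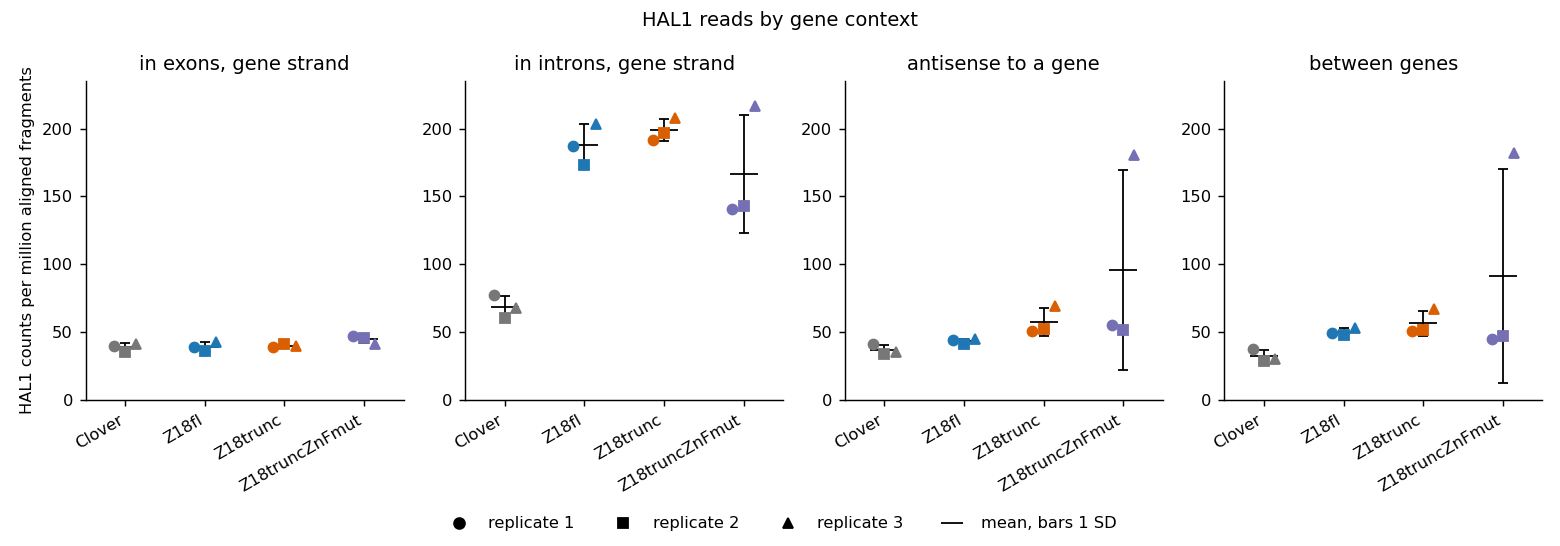
HAL1 CPM (y axis, the same scale from 0 in each panel) by gene context for the 4 constructs (x axis), each point a library, dashes the mean and bars 1 SD. Exonic counts stay between 35.5 and 47.1 in all libraries, intronic counts go from 60.3 to 76.96 in Clover to between 140 and 217 in the others, and Z18truncZnFmut replicate 3 stands out outside genes and antisense to them.

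As shares of HAL1 counts, introns held 38.8% ± 0.639 (SD, n = 3) in Clover, 58.6% ± 0.526 with Z18fl and 56.5% ± 2.07 with Z18trunc. In Z18truncZnFmut they held 48.9%, 49.7% and 34.9%, with replicate 3 below every Clover library. The exonic share fell from 22.1% ± 1.78 in Clover to 12.2% ± 0.215 with Z18fl and 11.4% ± 0.878 with Z18trunc. Clover overlapped neither construct in either share, with an exact permutation p of 0.1 (n = 3 against 3). The intronic shares of Z18truncZnFmut lay below all Z18trunc libraries, whose lowest was 54.1%, again at an exact permutation p of 0.1.

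HAL1 loci were also tested one by one, in fits over all elements. Only 72 of the 12001 members passed the filter on low counts for Z18fl against Clover, 80 for Z18trunc against Clover and 48 for Z18truncZnFmut against Clover. Since a locus can pass through the group in which it is high, the counts that follow describe these loci and not HAL1 as a whole. With Z18fl 23 loci were called higher (31.9%) and 18 lower (25.0%), against 28.3% higher and 24.6% lower over all 12098 elements tested, so the shares of HAL1 lay close to the background. With Z18trunc 28 of 80 were called higher (35.0%) and 10 lower (12.5%), against 22.5% and 13.4% of 13204 elements. With Z18truncZnFmut 3 of 48 were called higher (6.25%) and 1 lower, against 12.3% and 4.83% of 10152 elements. The median log2 fold changes of HAL1 loci were 0.24, 0.37 and 0.06, against 0.84, 1.02 and 0.59 over all tested LINE elements.

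With Z18fl, 18 of 36 intronic HAL1 loci were called higher and 2 lower, and with Z18trunc 24 of 44 were higher and 1 lower. All intronic elements tested were called higher in 41.8% and 35.4%, and intronic LINE elements in 62.0% and 64.5%. Of the 15 exonic loci tested with Z18fl, 2 were higher and 5 lower, beside 11.5% and 42.4% of all exonic elements tested. Of 13 antisense loci 3 were higher and 6 lower, beside 18.8% and 28.1% of all antisense elements. Of the 8 intergenic loci 5 were lower, beside 22.1% of all intergenic elements. The 3 loci called higher with Z18truncZnFmut were 3 of 20 intronic HAL1 loci tested, beside 21.3% of all intronic elements and 48.0% of intronic LINE elements. The median log2 fold change of intronic HAL1 loci was 1.16 with Z18fl and 1.59 with Z18trunc, and that of exonic loci -0.38 and -0.45. Over all tested elements the intronic medians were 0.64 and 0.47 and the exonic -0.62 and -0.49. Over LINE elements the intronic medians were 1.40 and 1.73 and the exonic -0.34 and -0.37.

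**Figure D3:**
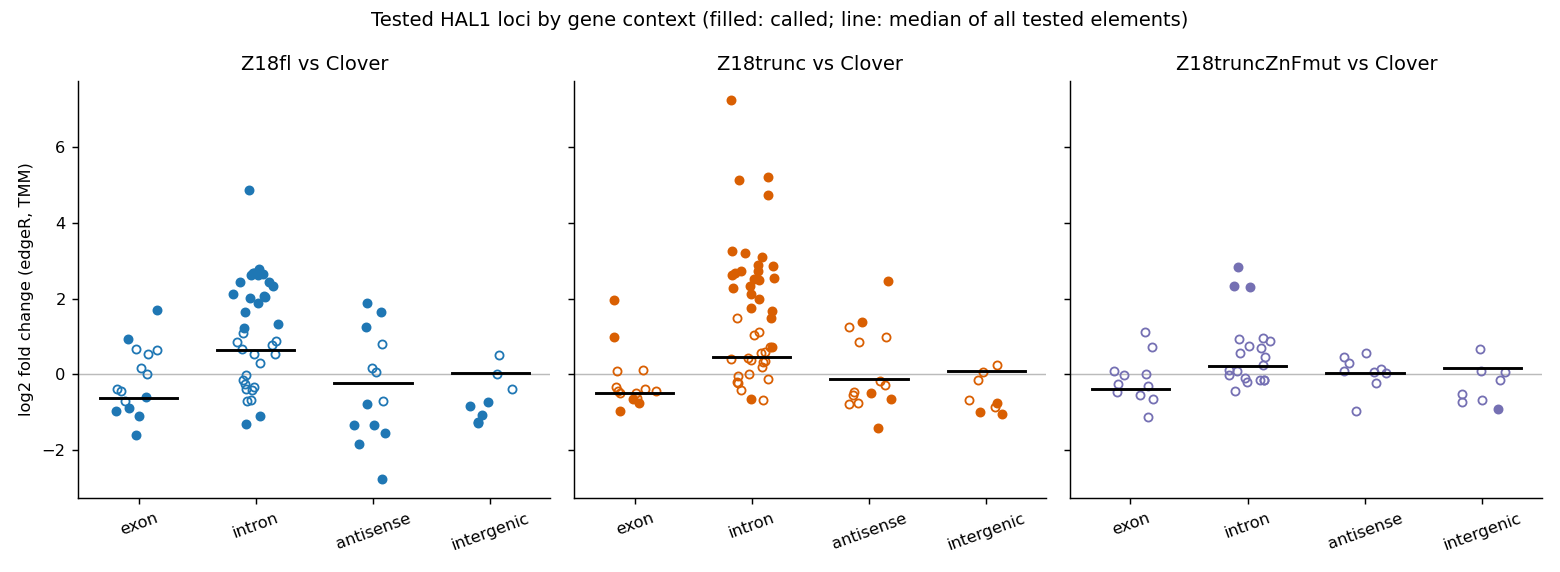
Log2 fold change against Clover (y axis, edgeR with TMM scaling) of every tested HAL1 locus by gene context (x axis), 1 panel per construct, filled points called at an adjusted p under 0.05, with a line at the median of all tested elements of that context. Intronic loci hold 18 of 23 higher calls with Z18fl, 24 of 28 with Z18trunc and 3 of 3 with Z18truncZnFmut. Over all tested elements, introns hold 2225 of 3424, 2052 of 2969 and 847 of 1245 higher calls.

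Of the loci called higher, 14 of the 23 of Z18fl were also among the 28 of Z18trunc, and all 3 of Z18truncZnFmut were among both. All 10 loci called lower with Z18trunc were among the 18 of Z18fl. These comparisons share the Clover libraries. Neighbouring pieces of a broken element share a host gene and are not independent, and the 23 loci of Z18fl lay in or opposite 17 genes.

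The loci in ATG12, PRKAG1 and LUC7L3 were picked for their large rises and passed the filter only through the construct libraries. Their p-values therefore describe these loci and are no separate support for a rise. The HAL1M8 locus in an intron of ATG12, which encodes a ubiquitin-like protein of autophagosome formation, spans 1003 bases at chr5:115835010-115836012. It had 11, 5 and 5 counts in Clover, 88, 41 and 120 with Z18fl, 86, 77 and 76 with Z18trunc, and 52, 46 and 65 with Z18truncZnFmut. Every library of the 3 constructs lay above Clover, by log2 fold changes of 2.68 ± 0.39 (SE), 2.67 ± 0.33 and 2.30 ± 0.39, with edgeR adjusted p of 2.5e-05, 3.9e-06 and 0.00012. A second HAL1M8 piece of the same gene, starting at 115834566 and chosen after its values were seen, was called higher with Z18fl at 2.63 and with Z18trunc at 2.88.

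The HAL1 locus in an intron of PRKAG1, which encodes a regulatory subunit of the energy sensor AMPK, spans 950 bases at chr12:49008159-49009108 and also lies in an unnamed gene. It had 3, 3 and 4 counts in Clover, 36, 44 and 46 with Z18fl, 44, 53 and 59 with Z18trunc, and 38, 35 and 41 with Z18truncZnFmut. The groups were tight and far from Clover, with log2 fold changes of 2.78 ± 0.41, 3.11 ± 0.40 and 2.84 ± 0.46 and edgeR adjusted p of 2.7e-05, 7.1e-06 and 8.1e-05.

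The HAL1 locus in an intron of LUC7L3, which encodes a splicing factor related to a U1 snRNP protein, spans 1288 bases at chr17:50738090-50739377. It had 5, 2 and 6 counts in Clover, 42, 58 and 52 with Z18fl, 40, 57 and 58 with Z18trunc, and 28, 29 and 46 with Z18truncZnFmut. No construct library overlapped Clover, and the log2 fold changes were 2.69 ± 0.40, 2.73 ± 0.41 and 2.33 ± 0.48 with edgeR adjusted p of 3.2e-05, 3.3e-05 and 0.001. A neighbouring HAL1 piece starting at 50737198, annotated as exonic and chosen after its values were seen, was called higher with Z18fl at 1.69 and with Z18trunc at 1.95.

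In 3 more introns the Clover reads were nearly or wholly absent. These loci passed the filter through the construct libraries alone and were picked for their large rises. Their p-values therefore describe the loci and are no separate support for a rise. The HAL1 locus in OXSR1, a kinase of the response to osmotic and oxidative stress, lies at chr3:38235280-38235837 and had 1, 0 and 0 counts in Clover, 18, 16 and 33 with Z18fl, 28, 31 and 19 with Z18trunc, and 11, 11 and 16 with Z18truncZnFmut. Per aligned fragment its group totals stood at 48.0 times Clover in Z18fl (95% exact interval 8.33 to 1925) and 56.0 times in Z18trunc (9.76 to 2241), intervals that cover counting error only. It was called higher with both, at edgeR adjusted p of 8.7e-05 and 4.9e-05. The fitted fold changes of such loci depend on a prior count and are not given.

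The HAL1 locus in MIR548XHG, a long noncoding host gene of a microRNA, spans 2193 bases at chr21:18594347-18596539 and had 0, 0 and 1 counts in Clover, 11, 20 and 21 with Z18fl, 22, 32 and 28 with Z18trunc, and 17, 23 and 22 with Z18truncZnFmut. Its Z18trunc total was 58.9 times that of Clover per aligned fragment (95% exact interval 10.3 to 2354), with an edgeR adjusted p of 3.7e-05. The HAL1 locus in HDAC8, a histone deacetylase gene, lies at chrX:72423255-72424579, also within an unnamed gene, and had no reads in Clover, 9, 9 and 23 counts with Z18fl, 21, 27 and 24 with Z18trunc, and 6, 11 and 8 with Z18truncZnFmut. Against a floor of 3 counts over the Clover group it was at least 17.2-fold higher in Z18trunc, at an edgeR adjusted p of 3.5e-05. Neither locus passed the filter for Z18fl or Z18truncZnFmut against Clover.

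Loci with many counts behaved otherwise, and the 4 described next were each called lower with Z18fl. The highest was a HAL1b element of 689 bases in the 3′ UTR of SLFN5, a Schlafen family gene, at chr17:35267750-35268438. It had 136, 151 and 146 counts in Clover, 132, 101 and 194 with Z18fl, 163, 180 and 148 with Z18trunc, and 289, 171 and 271 with Z18truncZnFmut, so raw counts overlapped between Clover and Z18fl. Its log2 fold change was -0.89 ± 0.17 with Z18fl (edgeR adjusted p = 0.00028) and -0.65 ± 0.15 with Z18trunc (edgeR adjusted p = 0.0017), and 0.10 ± 0.17 with Z18truncZnFmut (edgeR adjusted p = 0.77). Between Z18truncZnFmut and Z18trunc it was the single HAL1 locus that edgeR called, higher by 0.77 ± 0.17 with an edgeR adjusted p of 0.033. That adjusted p stayed under 0.05 without Z18truncZnFmut replicate 2 (0.0097) and was 0.052 to 0.25 without any 1 of the other 5 libraries.

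A pair of HAL1 elements on the strand opposite to THSD4, which encodes a matrix protein with thrombospondin repeats, were also among them, at chr15:71291799-71292675 and chr15:71292976-71293373. The longer had 96, 62.8 and 98 counts in Clover, 56, 57.5 and 70 with Z18fl, 99.9, 101 and 91 with Z18trunc, and 136, 129 and 150 with Z18truncZnFmut. The shorter had 90, 67 and 76 counts in Clover, 50, 55 and 59 with Z18fl, 105, 109 and 82 with Z18trunc, and 167, 98 and 142 with Z18truncZnFmut. Mean CPM was lowest in Z18fl at both, with log2 fold changes against Clover of -1.32 ± 0.20 and -1.35 ± 0.20 (edgeR adjusted p of 3.5e-05 and 2.5e-05). The shorter was the single HAL1 locus called between Z18trunc and Z18fl, higher in Z18trunc by 0.77 ± 0.19 with an edgeR adjusted p of 0.019, and this call was lost when Z18fl replicate 1 or 3 or Z18trunc replicate 1 or 2 was left out (0.056 to 0.091).

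The HAL1ME element in an intron of VOPP1, at chr7:55467235-55467613, was an intronic exception. It had 59, 57.5 and 81 counts in Clover, 48, 58.4 and 58 with Z18fl, 75, 61 and 85 with Z18trunc, and 103, 73 and 50 with Z18truncZnFmut. Its log2 fold change was -1.10 ± 0.21 with Z18fl (edgeR adjusted p = 0.00032) and -0.65 ± 0.21 with Z18trunc (edgeR adjusted p = 0.022), the latter not called without Clover replicate 3 (-0.49), Z18trunc replicate 1 (-0.55) or Z18trunc replicate 2 (-0.42), nor with uniquely mapping reads alone (-0.45, edgeR adjusted p = 0.13). The Z18trunc call of the longer THSD4 element was also lost with those reads (-0.45, edgeR adjusted p = 0.081). With aligned-fragment scaling the Z18fl values of SLFN5 and VOPP1 were -0.51 and -0.74, those of the longer and shorter THSD4 elements -0.96 and -0.99, and all 4 stayed called. With Z18trunc none of the 4 stayed called by edgeR under that scaling, at -0.30 for SLFN5, -0.31 for VOPP1, and -0.29 and -0.13 for the longer and shorter THSD4 elements. The locus that fell most with Z18fl was a HAL1 element opposite to PSMA8, a proteasome subunit gene, at chr18:26168752-26168995, with 17.0, 17.2 and 26.5 counts in Clover against 5.79, 0.00 and 10.5 with Z18fl, and only 10.2% of its counts mapped uniquely.

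**Figure D4:**
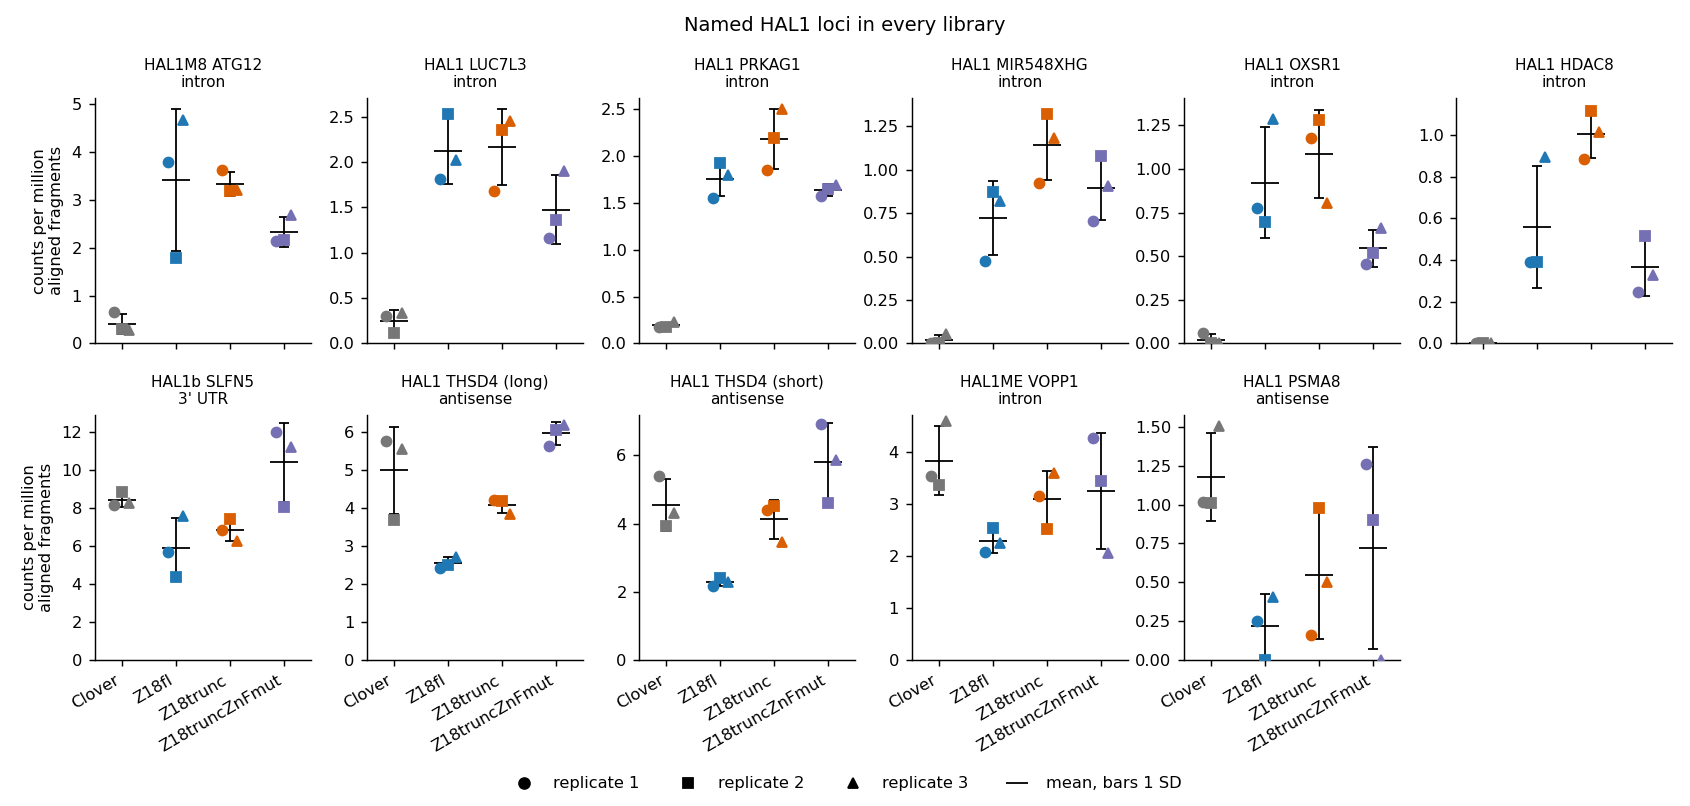
CPM (y axis, from 0, scales differ) of 11 named HAL1 loci in the 4 constructs (x axis), each point a library, dashes the mean and bars 1 SD. In the upper row, 6 intronic loci, picked for their large rises, lie above Clover in every library with a ZC3H18 construct. In the lower row the Z18fl libraries lie below Clover.

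For Z18trunc against Z18fl 145 HAL1 loci were tested, and edgeR called 1 higher and 0 lower, against 2.62% and 3.13% of 19413 elements. At an unadjusted p under 0.05 there were 14 higher and 9 lower. DESeq2 called 1 higher and 0 lower, beside 311 and 292 of all elements. For Z18truncZnFmut against Z18trunc 114 were tested, and edgeR again called 1 higher and 0 lower, against 0.368% and 0.351% of 16833 elements. At an unadjusted p under 0.05 there were 9 higher and 18 lower. DESeq2 called 4 higher and 0 lower, beside 87 and 81 of all elements. The medians over HAL1 loci were -0.04 and -0.22, and the 69 intronic loci of the second comparison had a median of -0.44, against -0.12 over all intronic elements.

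HAL1 was then set against like groups of LINE elements in the same library, so that library size drops out. Relative to L1M1 to L1M8 elements, an old L1 lineage, the log2 ratio of HAL1 counts was -1.88, -1.96 and -1.83 in Clover, -2.01, -2.06 and -2.12 with Z18fl, -2.13, -2.13 and -2.02 with Z18trunc, and -2.01, -1.96 and -2.09 with Z18truncZnFmut. Z18fl and Z18trunc lay below Clover, by -0.17 and -0.20, so HAL1 rose less than these L1 elements. Relative to L1ME elements the groups overlapped, with differences from Clover of 0.02, 0.06 and -0.09 and exact permutation p of 0.8, 0.3 and 0.8 (n = 3 against 3).

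Relative to L2, a different and older LINE family, HAL1 rose. The log2 ratio was -3.32, -3.50 and -3.39 in Clover, -2.71, -2.84 and -2.63 with Z18fl, -2.59, -2.63 and -2.67 with Z18trunc, and -2.72, -2.87 and -3.15 with Z18truncZnFmut. Every construct library lay above Clover, with differences of 0.68, 0.77 and 0.49, and Z18truncZnFmut lay below Z18trunc by -0.28. Each of these 4 differences, and those of Z18fl and Z18trunc from Clover relative to L1M1 to L1M8, had an exact permutation p of 0.1.

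Intronic HAL1 elements were also set against their own host genes. Their counts were divided by the counts expected from all other elements in introns of the same 1998 genes on the same strand, and the log2 of observed over expected was taken. It was -0.35, -0.65 and -0.36 in Clover, 0.10, 0.11 and 0.14 with Z18fl, 0.11, 0.10 and 0.12 with Z18trunc, and -0.13, -0.18 and -0.03 with Z18truncZnFmut. The Z18fl and Z18trunc values overlapped each other and lay above Clover by 0.57 and 0.56, and Z18truncZnFmut lay between, 0.34 above Clover and 0.23 below Z18trunc. All 4 differences had an exact permutation p of 0.1 (n = 3 against 3). When the expectation came from other L1 elements alone, the means were -0.09 ± 0.091 (SD, n = 3) in Clover, 0.03 ± 0.033 with Z18fl, 0.06 ± 0.094 with Z18trunc and -0.07 ± 0.062 with Z18truncZnFmut, and all 4 groups overlapped.

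**Figure D5:**
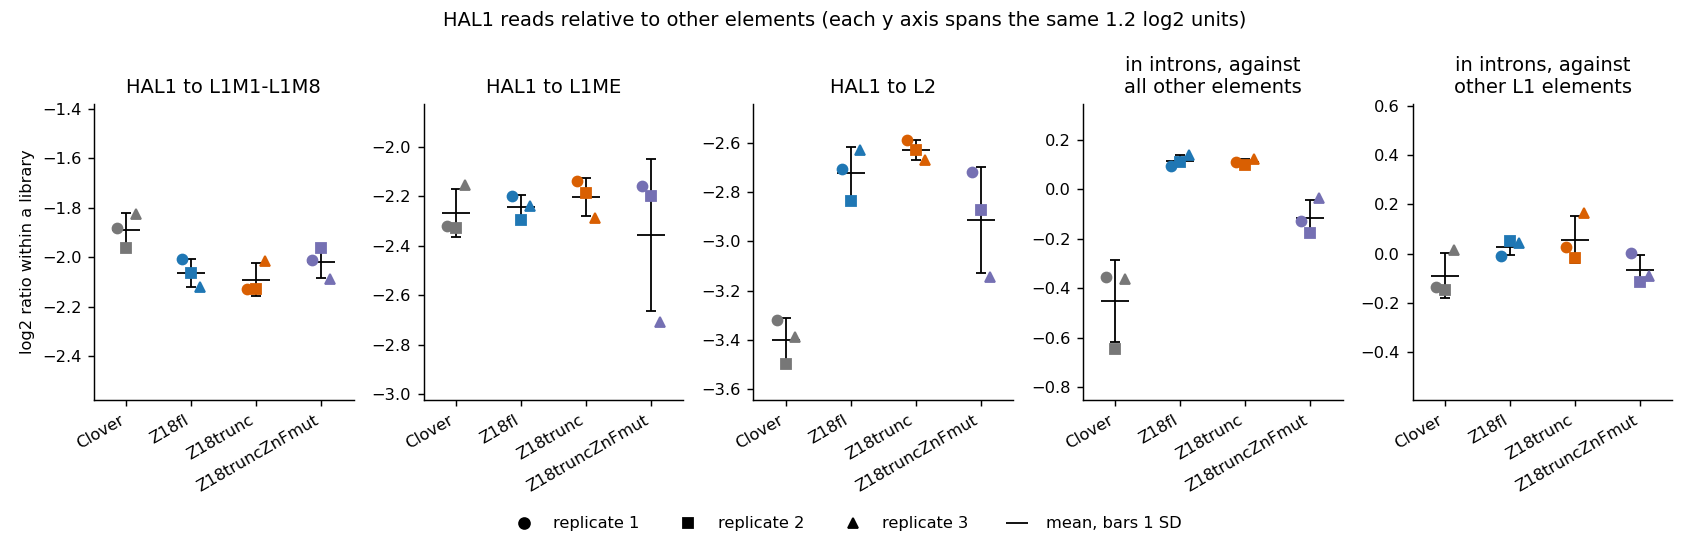
Log2 ratio of HAL1 counts to other elements within a library (y axis, 1.2 units in every panel) for the 4 constructs (x axis), each point a library, dashes the mean and bars 1 SD, with the last 2 panels for intronic counts against the expectation from the same host genes. HAL1 lies 0.57 above Clover in Z18fl when set against all other intronic elements of its host genes, and overlaps Clover when set against other L1 elements.

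Base composition of the HAL1 elements read differed little. The A and T content weighted by counts was 59.9% ± 0.285 (SD, n = 3) in Clover, 60.1% ± 0.0613 with Z18fl, 60.5% ± 0.304 with Z18trunc and 60.9% ± 1.61 with Z18truncZnFmut, where replicate 3 had 62.7% and the others 59.7% and 60.2%. Each construct overlapped Clover. Among tested loci, the 23 called higher with Z18fl had a median length of 657 bases, the 18 called lower 357 and the 31 not called 412, with median A and T contents of 57.5%, 60.6% and 56.9%. With Z18trunc the 28 loci called higher had a median length of 888 bases against 355 in the 10 called lower. The part of length in these calls was not tested.

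The share of HAL1 reads on the strand of the element was 65.1%, 63.9% and 67.9% in Clover, 70.5%, 69.8% and 71.4% with Z18fl, 72.8%, 72.0% and 68.2% with Z18trunc, and 72.7%, 69.0% and 54.9% with Z18truncZnFmut. All libraries of Z18fl and Z18trunc lay above Clover, by means of 4.96 and 5.43 percentage points at an exact permutation p of 0.1 (n = 3 against 3). Z18truncZnFmut spanned the Clover range, with replicate 3 lowest of all 12.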

How the data were processed

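The authors trimmed reads with cutadapt 4.6 (per their processing notes) and ran SQuIRE (version not given in the sources used here) on hg38, 1 file per library. Deposited uniquely mapping reads, reads with any alignment and aligned fragments are counts. Deposited totals are expected counts, in which SQuIRE shares multimapping reads by expectation maximization. The authors' FPKM values were only recomputed as a check, a deposited score gives how much of a locus's aligned reads its total keeps, in percent, and divergence from consensus is a further deposited score.

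Same-strand totals were rounded to whole numbers and tested with edgeR 4.0.16 (R 4.3.3; quasi-likelihood, TMM, filterByExpr with minimum count 10 and minimum total 15) over all elements of 6 classes, with the 6 libraries compared. Benjamini-Hochberg adjusted p under 0.05 was called. CPM is counts per 1e6 aligned fragments. Each library's values entered exact permutation tests (two-sided; 75 in all, with 15 on subfamily ratios chosen once values were known). GENCODE release 44 gave gene context, and exonic means that exons cover 50% of a locus or more. The fits were tested on simulated data. DESeq2 1.42.0 and other alternatives are given below.

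The loci to name were the 5 with the most counts and, against Clover for each construct, the top 3 rises and the top fall among calls whose libraries did not overlap, given 20 mean counts and a mean score of 90 in the higher group, plus calls of the same kind between constructs. No called locus reached that score (highest 88.7), so the minimum was dropped after the values were seen. The values of 1 such locus are not reported here. The members and lists were chosen with earlier results of these data known. No library pair of a group agreed within sampling noise (chi-square per degree of freedom 1.67 to 3.20).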

Additional observations from a re-analysis of the deposited data

Results flagged for a closer look

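Reads on the strand opposite to HAL1 elements, which enter the comparisons above only through the share of reads on the strand of the element, were more frequent than in any Clover library (82.3 to 105 CPM) in every library of the 3 ZC3H18 constructs. Their mean was 133 CPM in Z18fl, 145 CPM in Z18trunc and 249 CPM in Z18truncZnFmut. In Z18truncZnFmut the mean was 118 CPM without replicate 3, which had 509 CPM. Groups of 3 libraries are too small for a test of single outlying values.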

How the results depend on the processing

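HAL1 loci called higher and lower against Clover numbered 23 and 18 with Z18fl, 28 and 10 with Z18trunc and 3 and 1 with Z18truncZnFmut. Library sizes from aligned fragments gave 32 higher and 10 lower of 72 HAL1 loci with Z18fl, beside 4934 and 1699 of 12886 elements. They gave 39 and 2 of 84 with Z18trunc, beside 4280 and 494 of 13373. For Z18truncZnFmut they gave 11 and 0 of 58, beside 2013 and 133 of 11354. Without a filter on low counts there were 55 higher and 4 lower of 4596 with Z18fl, beside 5138 and 1027 of 672394 elements. There were 58 and 0 of 5303 with Z18trunc, beside 4754 and 100 of 740717. For Z18truncZnFmut there were 6 and 0 of 9171, beside 1520 and 13 of 1150817. Uniquely mapping reads gave 10 lower of 49 with Z18fl, beside 2116 of 8643 elements. They gave 18 higher and 6 lower of 47 with Z18trunc, beside 2094 and 1077 of 8593. For Z18truncZnFmut they gave 0 lower of 33, beside 319 of 6678. Reads on either strand gave 6 lower of 91 with Z18trunc and 0 of 65 with Z18truncZnFmut, beside 1786 of 19868 and 448 of 16035. DESeq2 gave 5 lower of 80 and 0 of 48, beside 1011 of 13204 and 320 of 10152. A single fit of all 12 libraries tested 151 HAL1 loci among 23343 elements. It gave 56, 47 and 22 higher with the 3 constructs, beside 5170, 4186 and 2723 of all elements. It gave 3 lower with Z18truncZnFmut, beside 1263. The cause of these moves was not tested. For Z18trunc against Z18fl, the 1 higher call became 2 with aligned fragments, uniquely mapping reads or either strand (with 1 lower in the last) and 0 without a filter. For Z18truncZnFmut against Z18trunc it became 4 with DESeq2, 3 with uniquely mapping reads, and 0 with aligned fragments, no filter or either strand.

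With 1 library left out, loci called higher ranged from 15 to 48 with Z18fl, from 15 to 47 with Z18trunc and from 3 to 7 with Z18truncZnFmut, and loci called lower from 10 to 18, from 3 to 12 and from 0 to 1. Without Clover replicate 1, 2 or 3 there were 48, 42 and 41 higher of 126, 122 and 121 with Z18fl. Over all elements there were then 4652 of 20245, 4591 of 19669 and 4113 of 19814. Without Z18fl replicate 3 there were 15 higher of 58, beside 2779 of 10642. Without Z18fl replicate 2 there were 10 lower of 64, beside 2113 of 10738. With Z18trunc there were 47 higher of 148 without Clover replicate 1, beside 3912 of 22491 elements. Leaving out Z18trunc replicate 1 gave 15 higher and 4 lower of 56, beside 2220 and 924 of 10186. Leaving out Z18trunc replicate 2 gave 18 and 4 of 59, beside 2189 and 913 of 10236. Without Clover replicate 3, 3 of 149 were lower, beside 1405 of 22743. With Z18truncZnFmut 6, 6 and 7 of 81, 80 and 82 were higher without Clover replicates 1, 2 and 3. Over all elements there were then 1417 of 15806, 1351 of 15822 and 1330 of 16026. Between constructs the range was 0 to 1.

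The HAL1 sum with Z18fl was 0.41 in the single fit of 12 libraries, at an edgeR adjusted p of 0.052. With 1 library left out it ranged from 0.17 to 0.38 with Z18truncZnFmut and from -0.26 to -0.14 for Z18truncZnFmut against Z18trunc, which turned to 0.18 with aligned fragments. HAL1b turned to 0.28, 0.37 and 0.78 against Clover with aligned fragments, called higher with Z18fl and Z18trunc. It turned to 0.013 with Z18truncZnFmut with either strand. With Z18fl HAL1b was -0.22 and called with uniquely mapping reads. It was -0.24 to -0.15 with Z18fl with 1 library left out, called at -0.24 without Z18fl replicate 3. HAL1ME with Z18trunc was 0.31 in the single fit (not called) and 0.24 to 0.36 with 1 library left out, and was not called without Clover replicate 2 (0.24) or Z18trunc replicate 1 (0.31). With Z18truncZnFmut HAL1M8 was 0.50 and called in the single fit and 0.44 to 0.62 with 1 library left out, and HAL1 0.22 to 0.46. For Z18truncZnFmut against Z18trunc, aligned fragments turned HAL1 to 0.11, HAL1M8 to 0.047 and HAL1ME to 0.43, either strand turned HAL1ME to 0.017, the single fit turned HAL1b to -0.038, and leaving out 1 library gave HAL1b -0.054 to 0.090 and HAL1ME -0.073 to 0.040. The single fit turned the THSD4 loci to -0.12 and -0.028 and SLFN5 to -0.079 with Z18truncZnFmut, and the longer THSD4 locus ranged there from -0.15 without Clover replicate 2 to 0.26 without Z18truncZnFmut replicate 1. The antisense share of Z18trunc against Z18fl turned to -0.29 percentage points on either strand. The host gene ratio of Z18trunc against Z18fl was 0.028 against other L1 elements, an alternative added after seeing the data.

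Same-numbered libraries correlated between -0.063 and 0.024 in their deviations from the group means. That gave no sign of a batch shared by replicate number but cannot exclude one, since counting noise at low counts also weakens such correlations. A replicate block gave 22 higher and 15 lower with Z18fl, 24 and 7 with Z18trunc, 3 and 0 with Z18truncZnFmut, 1 and 0 between Z18trunc and Z18fl and 0 between Z18truncZnFmut and Z18trunc, and a HAL1 sum of 0.40, 0.51 and 0.25. Over all elements the block gave 3176 and 2620 of 12098, 2780 and 1365 of 13204, and 1140 and 428 of 10152 against Clover. Depth limits these results, since at most 145 of 12001 loci passed the filter in the comparisons of 6 libraries reported above.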
